A study of Mus musculus with 5 samples.

Results

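The 36 genes described here are targets of the transcription factor NRF2 and enzymes of glutathione metabolism, listed by name and not by their values in these data. They were taken through the array annotation wherever a probe set, a group of array probes for one transcript, was assigned to a single gene of the list. Of the 36 genes, 32 had such a probe set, 55 probe sets in all, among 18193 genes that could be named in this way. All 32 passed the filter on dim probe sets and stood among the 12536 genes tested. Gsta1, Ftl1 and Prdx1 were covered only by probe sets shared with other genes, and no probe set was listed for G6pdx.

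Arrays read the RNA of tracheal epithelial cells, sorted from C57BL/6 mice of 8 to 12 weeks and both sexes, and no transgene or treatment is named in the labels. The 2 basal arrays came from cells of the lower trachea, freed with dispase from the surface epithelium and sorted for TROP-2 and ITGA6. The 3 duct arrays came from cells of the upper trachea, sorted for TROP-2 alone from the tissue left after pronase had taken off the surface epithelium. Each array reads a pool of 10 to 15 mice, and the labels do not say whether basal and duct pools of one number are paired. The enzyme, the section of trachea and the gate of the sort thus cannot be told apart from the cell type.

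NRF2, encoded by Nfe2l2, is held at a low level by KEAP1, which directs it to degradation; oxidants and electrophiles modify KEAP1, and NRF2 then accumulates and activates genes through antioxidant response elements. Its targets make and recycle glutathione, supply NADPH, reduce peroxides and quinones, break down heme and store iron, and join glutathione to reactive compounds. Airway epithelium meets inhaled oxidants directly, and its secretory cells in particular are known for abundant detoxifying enzymes.

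The upstream sequences are shown for the members that passed the test, Ptgr1 and Gsta2, and for Gsta1, which shares a probe set with Gsta2. Each is the 250 bases before a start in the RefSeq promoter table (GRCm38.p6), on the gene's own strand. The start of Gsta1 is the end of its gene span, while those of Ptgr1 and Gsta2 lie 53 and 47 bases inside theirs, so that many of the printed bases belong to the RefSeq gene. The window of Ptgr1 is chr4:58987079-58987328, minus strand, that of Gsta2 chr9:78347146-78347395, minus strand, and that of Gsta1 chr9:78230419-78230668, plus strand.
Ptgr1: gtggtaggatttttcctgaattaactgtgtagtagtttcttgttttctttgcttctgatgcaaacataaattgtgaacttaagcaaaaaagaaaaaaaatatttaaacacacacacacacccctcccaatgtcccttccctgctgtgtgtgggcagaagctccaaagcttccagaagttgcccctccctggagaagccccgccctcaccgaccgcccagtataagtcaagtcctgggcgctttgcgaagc
Gsta2: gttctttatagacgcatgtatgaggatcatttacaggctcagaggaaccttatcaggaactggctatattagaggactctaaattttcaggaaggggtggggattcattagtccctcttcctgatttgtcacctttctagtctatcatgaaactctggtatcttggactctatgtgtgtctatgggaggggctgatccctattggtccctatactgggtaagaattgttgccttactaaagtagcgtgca
Gsta1: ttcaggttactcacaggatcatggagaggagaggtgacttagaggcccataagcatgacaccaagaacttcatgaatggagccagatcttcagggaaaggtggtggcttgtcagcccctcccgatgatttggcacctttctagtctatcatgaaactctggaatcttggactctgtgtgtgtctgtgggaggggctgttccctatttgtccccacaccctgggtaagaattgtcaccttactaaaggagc
In a global alignment 184 of 250 bases, 73.6%, were identical between Gsta1 and Gsta2, against 50.8% between Gsta1 and Ptgr1 and 50% between Gsta2 and Ptgr1.

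The core of the antioxidant response element, TGACNNNGC, was searched on both strands in windows of 250 bases before and 50 after the starts in that table, which gives some genes several. RefSeq windows were matched for 30 of the 36 members. A match lay in 9 of the members' 38 windows, or 23.7%, and in 12.4% of all 32851 windows; 9 members had one, 30% of those with a window, against 14.0% of all genes. The 9 matches are shown with 10 bases on each side, the matched letters in capitals, because they are the only places in these windows where the core occurs in a member.
Gclm: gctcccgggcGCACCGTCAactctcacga
Gstm5: caccgcccacTGACCACGCggagggcggg
Mgst1: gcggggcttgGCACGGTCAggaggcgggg
G6pdx: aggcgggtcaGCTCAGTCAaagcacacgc
Pgd: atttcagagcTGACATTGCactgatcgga
Me1: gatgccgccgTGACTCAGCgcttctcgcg
Txnrd1: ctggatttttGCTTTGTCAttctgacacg
Prdx1: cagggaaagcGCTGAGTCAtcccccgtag
Srxn1: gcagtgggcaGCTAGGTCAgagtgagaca
Those on the plus strand are Gclm at chr3:122245413-122245441, Gstm5 at chr3:107895802-107895830, Mgst1 at chr6:138140461-138140489, Txnrd1 at chr10:82859104-82859132, Prdx1 at chr4:116685456-116685484 and Srxn1 at chr2:152105542-152105570. Those on the minus strand are G6pdx at chrX:74428919-74428947, Pgd at chr4:149166061-149166089 and Me1 at chr9:86695902-86695930. Of the members' 38 windows 24 were at the 5′ end of the gene span and held 6 of the matches, and 14 were at starts inside it and held 3. These 3 are Gclm, at a start 70 bases inside, Pgd, 623 bases inside, and Txnrd1, 25255 bases inside; the windows of Pgd and Txnrd1 at the 5′ end of their spans had no match. Me1 and Prdx1 hold the letters TGACTCAGC, a special case of the core that was read on both strands and that 0.454% of all windows hold. The RefSeq table gave no window for Gclc, Gsr, Gsta4, Hmox1, Aldh3a1 and Abcc1. Ptgr1, Gsta2 and Nqo1 had no match in their windows, which says only that these letters do not occur there.

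Duct cells had higher levels of Ptgr1, which reduces reactive aldehydes and ketones as well as prostaglandin and leukotriene metabolites, and of Gsta2, an alpha-class glutathione transferase. Ptgr1 rose 5.05-fold and Gsta2 4.29-fold on the log2(intensity + 16) scale, in which 16 is added to each intensity before the logarithm. All fold changes and intervals below are on that scale unless stated otherwise. Of the 32 tested members 2 rose and 0 fell at an adjusted p under 0.05 with limma, against 0.838% of all tested genes that rose and 0.136% that fell. A further 7 members had differences of more than 1 on the log2 scale that did not pass the test: Hmox1, Nqo1, Slc7a11, Aldh3a1, Txnrd1, Srxn1 and Abcc1. At an unadjusted p under 0.05, 10 members were higher and 0 lower, against 7.91% and 10.6% of all genes. Slc7a11 is among the 10, and it passed the filter on dim probe sets through its duct arrays.

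In 16 of the 32 members every duct array lay above both basal arrays, and in 4 every duct array lay below them; over all tested genes these shares were 16.5% and 22.6%. The median log2 fold change was 0.30 over the members and -0.12 over all tested genes; quantile normalization put the latter at -0.05 and centring of each array on the median put it at 0.08, and small differences are to be read against that. The members' differences ran from -0.60 for Me1 to 3.06 for Hmox1, and 25 were positive. Gstm1, Gsto1 and Fth1 were the 3 members whose sign differed between the scalings. Leaving out any single array of the 5 ended both calls: the adjusted p of Ptgr1 was then 0.0825 to 0.259 and that of Gsta2 0.102 to 0.255, while their log2 fold changes stayed at 2.17 to 2.54 and 1.84 to 2.36. Both were also lost with a pseudocount of 1 (adjusted p = 0.0525 for Ptgr1 and 0.0519 for Gsta2) and with no filter on dim probe sets (0.0998 and 0.104).

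**Figure D1:**
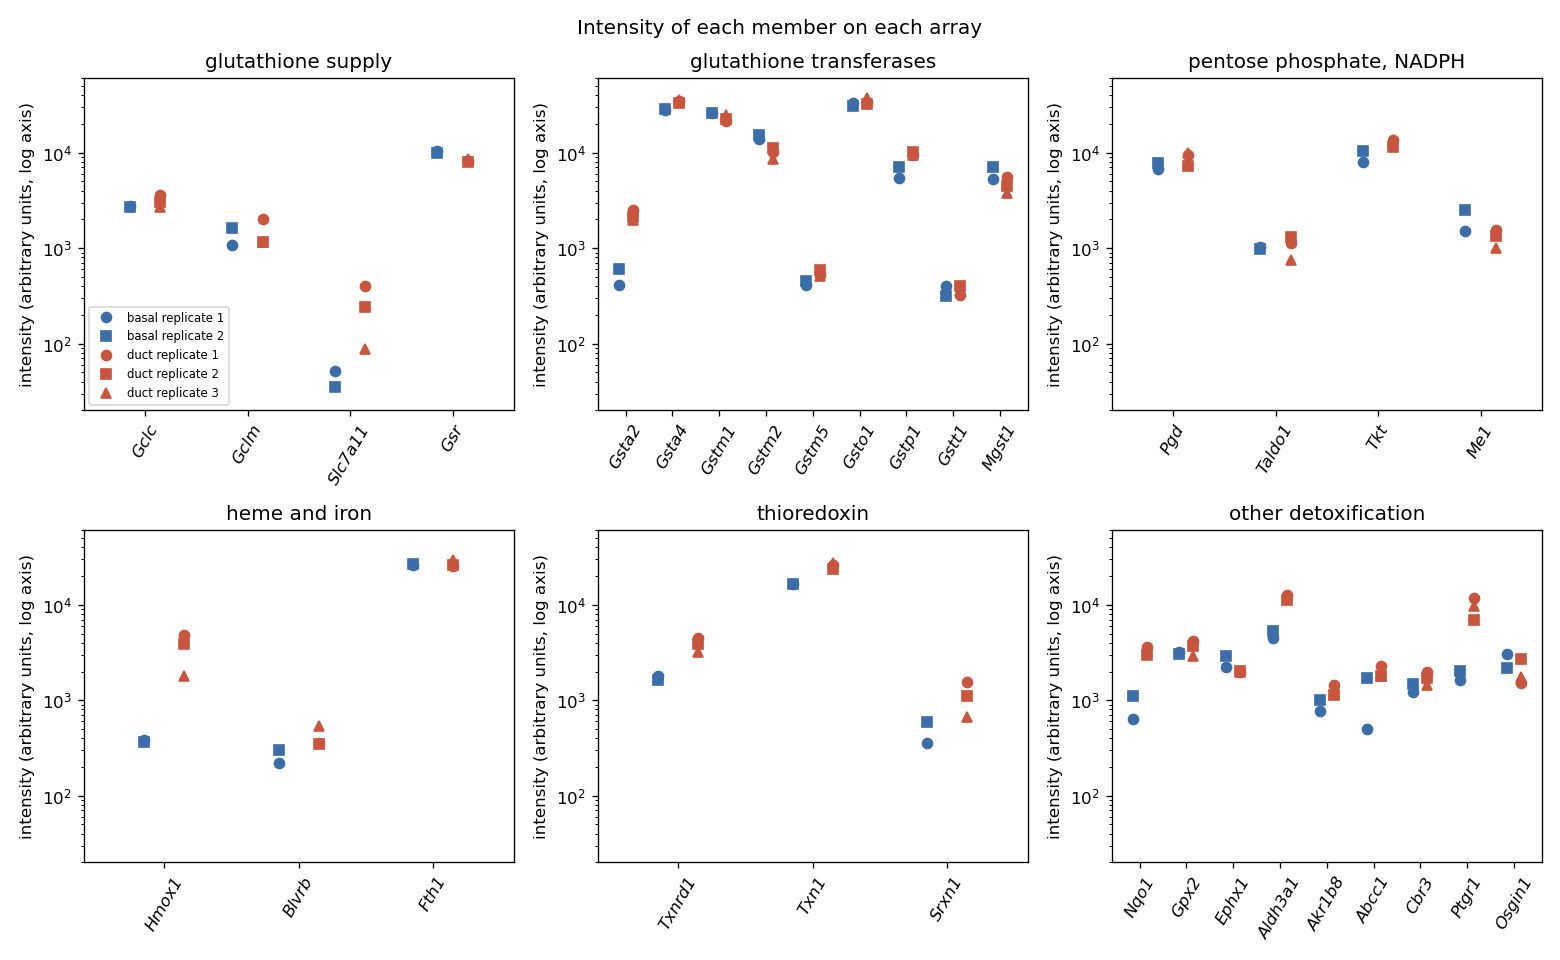
Intensity of the 32 tested members on each array, on a log axis in arbitrary units, with basal arrays in blue and duct arrays in red and the marker shape giving the replicate number. Duct arrays of Hmox1 lie between 1776 and 4823 and both basal arrays near 372, while Fth1, Gsto1 and Gstt1 have overlapping groups.

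**Figure D2:**
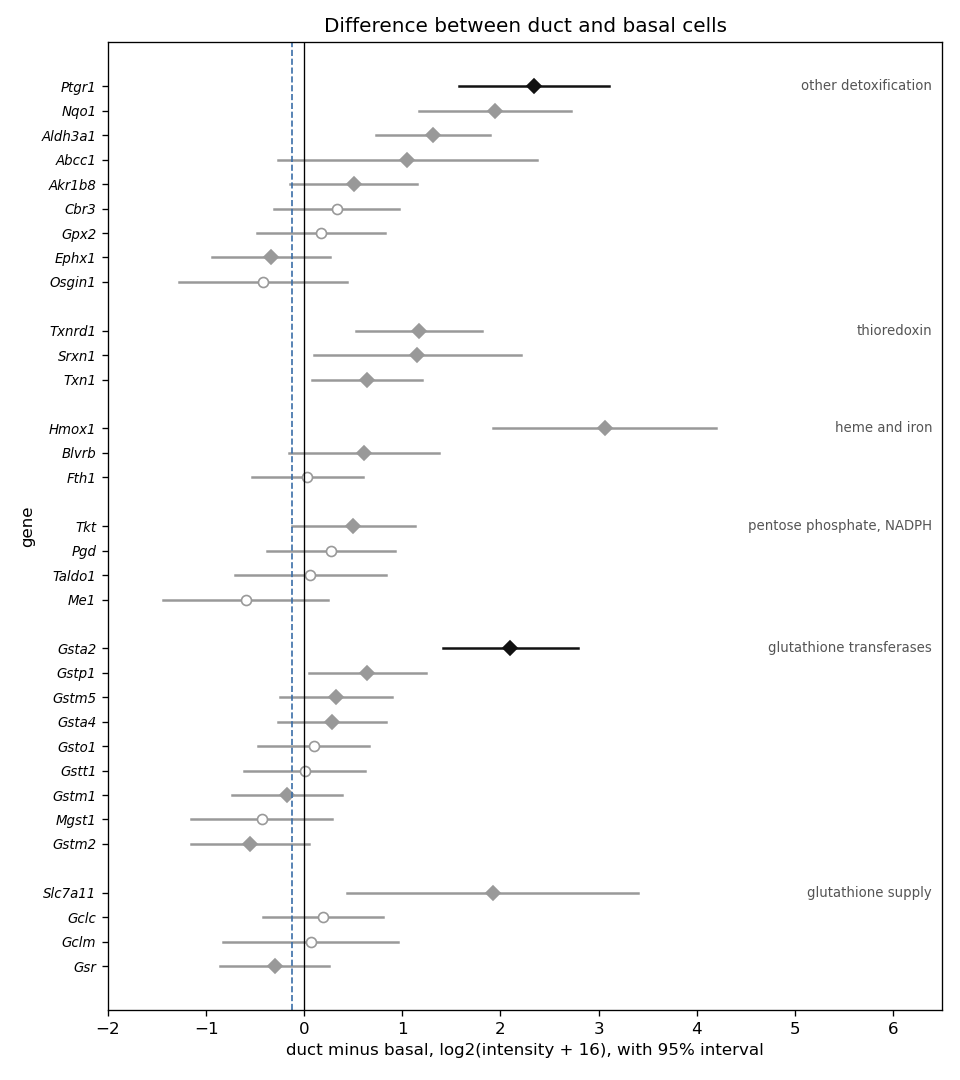
Difference between duct and basal cells for each tested member on the log2(intensity + 16) scale, with its 95% interval from limma; filled diamonds mark members whose groups do not overlap, black those with an adjusted p under 0.05, and the dashed line is the median of all tested genes, -0.12. Only Ptgr1 and Gsta2 are black, and the interval of Hmox1 is the one that reaches highest, to 4.20.

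Several facts of the whole series bear on these values. The deposited intensities were scaled to one trimmed mean per array, but the median intensity of duct replicate 1 was 92.3, below the 146.5 to 152.8 of the other 4. The brightest of 27 Bacillus control probe sets, used as a measure of background, read 39.5 to 86.5. All 11 basal cell markers, among them Krt5 and Trp63, lay above that level in at least one array of each group. Of 9 tested markers of submucosal gland, 0 passed the test in either direction and 3 were higher at an unadjusted p under 0.05 with limma; their median log2 fold change was 1.36, and in 4 every duct array lay above both basal arrays. In bulk RNA, fewer cells of a type and less RNA per cell cannot be told apart.

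Among the genes of glutathione supply, the cystine transporter gene Slc7a11 differed most. It measured 52.3 and 35.1 in basal cells, while duct replicates 1, 2 and 3 gave 401.6, 243.3 and 87.9. The duct arrays lay above the basal arrays, but duct replicate 3 was close to them. The log2 fold change was 1.92 (SE 0.60, interval 0.44 to 3.41, limma adjusted p = 0.188). Both basal values lay inside the Bacillus control range, so that the fold estimated from the means was at least 2.85. That bound leaves out the spread of the arrays. Without duct replicate 1 the gene no longer passed the filter on dim probe sets. Its second probe set was too dim to be tested and was at 0.21, and with the mean of both probe sets the gene was at 1.07.

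Gclc and Gclm encode the catalytic and modifier subunits of the enzyme that makes the first step of glutathione synthesis. Gclc measured 2755 and 2676 in basal and 3637, 3026 and 2707 in duct cells, and the groups overlapped (log2 fold change 0.19, 95% interval -0.42 to 0.81). Gclm measured 1085 and 1611 in basal and 1997, 1153 and 1148 in duct cells, again with overlap (0.06, interval -0.83 to 0.96). For both genes the second tested probe set had a difference of the opposite sign, -0.33 for Gclc and -0.09 for Gclm. Gsr, which returns oxidised glutathione to its reduced form, measured 10434 and 9885 in basal and 8138, 7939 and 8646 in duct cells. All its duct arrays were below its basal arrays, by a log2 difference of -0.30 (SE 0.22, adjusted p = 0.518), and its other probe set was at -0.92.

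Gsta2 was the one glutathione transferase gene that passed the test. Its probe set measured 416 and 602 in basal cells, against 2532, 2119 and 1983 in duct cells. The groups were well apart, at a log2 fold change of 2.10 (SE 0.28, 95% interval 1.41 to 2.79, limma adjusted p = 0.0415). A further probe set, shared by Gsta1, Gsta2 and Gm3776 and so naming none of them, measured 1657 and 1621 in basal and 12251, 8963 and 11420 in duct cells. Fitted with each probe set as the unit, that probe set was at 2.71 (SE 0.28, adjusted p = 0.0392), against 0.215% of all probe sets called higher in that fit. Of the 53 tested probe sets of a single member, 0 were called in it. At an unadjusted p under 0.05, 11 of them were higher, all tested probe sets of Txnrd1 among them. The share of all probe sets at that threshold is not given here. Alpha-class genes are close copies of each other, and how far the Gsta2 probe set also reads its relatives was not tested.

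The other 8 tested transferase genes had differences between -0.55 and 0.64, none past the test. Gstp1, the pi-class enzyme, measured 5494 and 6997 in basal and 9547, 10162 and 9407 in duct cells (log2 fold change 0.64, SE 0.24, adjusted p = 0.241). Among the mu-class genes, Gstm2 measured 13889 and 15247 in basal and 10153, 11110 and 8638 in duct cells (-0.55, SE 0.24, adjusted p = 0.302), and was below 0 under every scaling. Gstm1 was at -0.18, with its 4 tested probe sets between -0.64 and -0.18, but at 0.03 with median centring. Gstm5, at 0.32, had all duct arrays above the basal arrays.

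Gsta4, an alpha-class enzyme that acts on the lipid peroxidation product hydroxynonenal, measured 28289 and 28370 in basal and 34521, 32932 and 36024 in duct cells (0.28, SE 0.22, adjusted p = 0.545). Gsto1, of the omega class, measured 33048 and 30982 in basal and 33620, 32049 and 37048 in duct cells, and the groups overlapped (0.09, SE 0.23, adjusted p = 0.854). With quantile normalization it was at -0.01. Its second probe set was at 0.41 with every duct array above the basal arrays, and stood for the gene once possibly cross-hybridising probe sets were left out. Gstt1, of the theta class, was at 0.004 with an interval of -0.61 to 0.62, and the microsomal gene Mgst1 at -0.44 with an interval of -1.15 to 0.28. Beside these enzymes, 9 genes of club cells, the secretory cells of the airway surface, summed to 129647 and 176174 on the basal and 124435, 109772 and 125476 on the duct arrays; their part in the transferase values was not tested.

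The genes of the pentose phosphate pathway, which makes NADPH from glucose 6-phosphate, and Me1 gave no call, and the median of the 4 tested was 0.17. Tkt, a transketolase of its non-oxidative branch, measured 7999 and 10309 in basal and 13729, 11420 and 13570 in duct cells. Its duct arrays were all above its basal arrays (log2 fold change 0.50, SE 0.25, adjusted p = 0.357), but its other tested probe sets were at 0.59 and -0.36. Pgd, the second dehydrogenase of the oxidative branch, was at 0.27 with overlapping groups, and its 4 probe sets ran from 0.25 to 0.38. Taldo1, a transaldolase, measured 1021 and 974 in basal and 1127, 1320 and 757 in duct cells, at 0.06. Me1, the cytosolic malic enzyme and another source of NADPH, measured 1507 and 2518 in basal and 1554, 1348 and 1005 in duct cells (-0.60, interval -1.44 to 0.24), and its second probe set was at -0.70.

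Hmox1, the inducible heme oxygenase, had the largest difference of the 32 members as fitted. It measured 379 and 365 in basal cells, while duct replicates 1, 2 and 3 gave 4823, 3890 and 1776. Every duct array was far above the basal arrays, and the duct arrays were themselves wide apart. The log2 fold change was 3.06, or 8.34-fold (SE 0.46, 95% interval 1.92 to 4.20), and the adjusted p with limma was 0.0551, just outside the threshold. Hmox1 passed it in 7 of 17 alternative fits, among them quantile normalization (adjusted p = 0.0378); over the 17 its adjusted p was 0.000618 to 0.270 and its log2 fold change 2.77 to 3.49.

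The other heme and iron genes had smaller differences, none past the test. Blvrb, a biliverdin reductase, measured 222 and 303 in basal and 355, 344 and 538 in duct cells (0.61, SE 0.31, adjusted p = 0.359). Blvra, the other biliverdin reductase gene, is not a member and was at -0.39 with overlapping groups. Fth1, the heavy chain of the iron store ferritin, measured 26153 and 26782 in basal and 25504, 26383 and 29417 in duct cells (0.03, SE 0.23, interval -0.53 to 0.60). It was at -0.08 with quantile normalization, and so was its second probe set in the fit as reported. A pair of probe sets shared by Ftl1 and a pseudogene were at -0.19 and -0.18, and one shared with Mir692 genes as well was at -0.54, none past the test. Macrophages are known for high Hmox1: 14 leukocyte and macrophage genes summed to 11246 and 28873 on the basal and 32461, 23681 and 30150 on the duct arrays. Most of each sum was Lyz1, a lysozyme gene. Over the arrays Lyz1 ran in the same order as the lysozyme gene Lyz2, which is listed here under submucosal gland. The sums are thus not a measure of macrophages alone. Without Lyz1 the other 13 genes summed to 1133 and 2181 in basal and 2288, 3049 and 2885 in duct cells. Of the 9 tested, Lyz1 among them, 0 passed with limma and 2 were higher at an unadjusted p under 0.05. In all 8 were positive, and the median of 0.64 was the value of Lyz1 itself. C1qb measured 105.3 and 199.4 in basal and 348.9, 264.0 and 493.7 in duct cells, and Csf1r was at 2.02 with overlap. C1qa and Coro1a read no higher than the brightest Bacillus control on any array. Cd68, another macrophage gene, measured 188.9 and 211.2 in basal and 294.4, 437.1 and 312.9 in duct cells. The remaining tested genes of the list all had overlapping groups: Laptm5 was at 1.32, Ptprc at 0.57, Mrc1 at 0.10, Tyrobp at 0.09 and Cd79a at -0.98. The 5 measured erythroid genes summed to 96.3 to 415.7, and Rhag among them also stayed below the controls. The part of these cells in the Hmox1 values was not tested.

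On the most intense probe set of all 3 tested thioredoxin genes the duct arrays lay above the basal arrays, as in 16.5% of all tested genes. Their differences were positive under every scaling. Txnrd1, the cytosolic thioredoxin reductase, measured 1791 and 1621 in basal and 4535, 3907 and 3220 in duct cells. The groups were clearly apart, at a log2 fold change of 1.17 (SE 0.26, interval 0.53 to 1.81, adjusted p = 0.105), and its 3 probe sets ran from 0.90 to 1.17. Txn1, the thioredoxin it reduces, measured 16613 and 16531 in basal and 26162, 23954 and 27593 in duct cells (0.64, SE 0.23, adjusted p = 0.225). The second probe set of Txn1, much dimmer, was at -0.03 with overlap, and with the mean of both the gene was at 0.30.

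Srxn1, which restores over-oxidised peroxiredoxins, measured 361 and 589 in basal and 1542, 1101 and 671 in duct cells. Duct replicate 3 lay close to basal replicate 2, and the log2 fold change was 1.15 (SE 0.43, adjusted p = 0.238). Its 4 probe sets ran from 0.51 to 1.15, and those at 0.51 and 0.85 had overlapping groups. Without 1 array it was at 0.26 to 1.47: 0.26 without basal replicate 2 and 0.43 without duct replicate 1, fits in which another of its probe sets was the most intense and stood for the gene. Prdx1, a peroxiredoxin, was covered by 5 probe sets shared with Gm21399, at -0.04 to 0.02, all with overlapping groups.

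Among the other detoxification genes Ptgr1 passed the test. It measured 1646 and 2007 in basal cells, against 11674, 6958 and 9746 in duct cells. All duct arrays were well above the basal arrays, at a log2 fold change of 2.34 (SE 0.31, 95% interval 1.57 to 3.10, limma adjusted p = 0.0415). Nqo1, a quinone reductase and a classical NRF2 target, measured 640 and 1113 in basal and 3605, 2987 and 3344 in duct cells. Its groups were also far apart (1.95, SE 0.31, interval 1.17 to 2.72, adjusted p = 0.0640).

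Aldh3a1, an aldehyde dehydrogenase abundant in cornea and in some surface epithelia, measured 4498 and 5302 in basal and 12679, 11313 and 12472 in duct cells. Its duct arrays lay close together, at 1.31 (SE 0.23, interval 0.73 to 1.89, adjusted p = 0.0730). Abcc1, an exporter of glutathione conjugates, measured 497 and 1726 in basal and 2288, 1781 and 1802 in duct cells. The wide gap was between the basal arrays: the log2 fold change was 1.05 (SE 0.53, adjusted p = 0.356), 0.17 without basal replicate 1 and 1.93 without basal replicate 2. The second probe set of Abcc1 was at 0.57 with overlapping groups.

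Akr1b8, an aldo-keto reductase, was at 0.51 with no overlap, and Cbr3, a carbonyl reductase, at 0.33 with overlap. Gpx2, a glutathione peroxidase of epithelia, measured 3235 and 3070 in basal and 4208, 3678 and 2907 in duct cells, at 0.17. Ephx1, the microsomal epoxide hydrolase, was below its basal arrays on all duct arrays, at -0.34 (adjusted p = 0.501). Osgin1, an oxidative stress-induced growth inhibitor, measured 3049 and 2190 in basal and 1500, 2702 and 1755 in duct cells, at -0.42 with overlap. In the same arrays thyroid genes, 7 of 8 of which were measured, summed to 439 and 420 in basal and to 9522, 17028 and 21998 in duct cells. Tg, the thyroglobulin gene, made up most of the duct sums, at 8779, 16062 and 20119; the other 6 genes summed to 428 and 367 in basal and 742, 966 and 1879 in duct cells. Their part in the members' values was not tested.

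**Figure D3:**
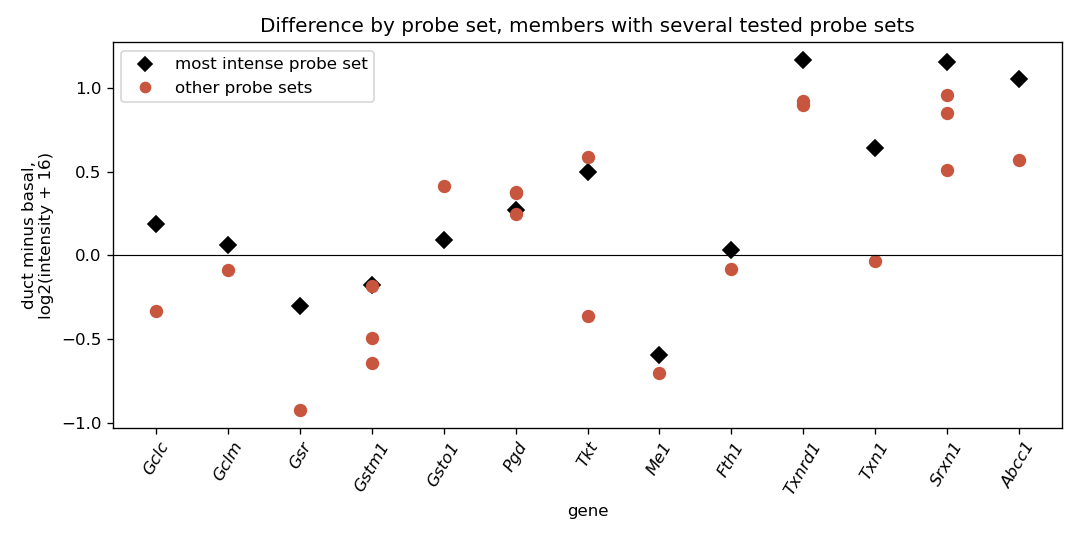
Difference between duct and basal cells, on the log2(intensity + 16) scale, for each tested probe set of the 13 members with several; black diamonds are the most intense probe sets, which stand for the gene, and red circles the others. The probe sets of Pgd, Txnrd1 and Srxn1 lie on one side of 0, and those of Gclc, Gclm, Tkt, Fth1 and Txn1 on both.

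The duct pools differed from each other in some members more than in others. Slc7a11 had the widest range over the duct arrays, 2.01 on the log2 scale, and its intensity, without the added 16, was 4.57 times as high on duct replicate 1 as on duct replicate 3. Hmox1 followed with 1.43 and Srxn1 with 1.18, both highest on duct replicate 1 and lowest on duct replicate 3. Osgin1, with 0.84, was highest on duct replicate 2, and Gclm, with 0.79, on duct replicate 1. At the other end Ephx1 varied by 0.04, Gstp1 by 0.11 and Gsr by 0.12. The median range was 0.37 over the members and 0.65 over all tested genes. With median centring these were 0.92 and 0.90, so that the members' range was then not the smaller.

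Duct replicate 1 was the highest duct array in 17 of the 32 members, against 32.2% of all tested genes, and duct replicate 3 the lowest in 15, against 31.9%. In 11 members both held, against 17.5% of all genes: Slc7a11, Hmox1, Srxn1, Gclm, Me1, Mgst1, Gpx2, Txnrd1, Cbr3, Gclc and Gsta2. With 1 array a pool there is no test of a pool, and duct replicate 1 is the array with the low median. With quantile normalization duct replicate 1 was highest in 21 members, against 36.2% of all genes, and both held in 15, against 19.7%. With median centring it was highest in 31, against 68.7%, and both held in 17, against 36.02%. Of the 11 genes, Gclm was the one for which both did not hold with quantile normalization.

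**Figure D4:**
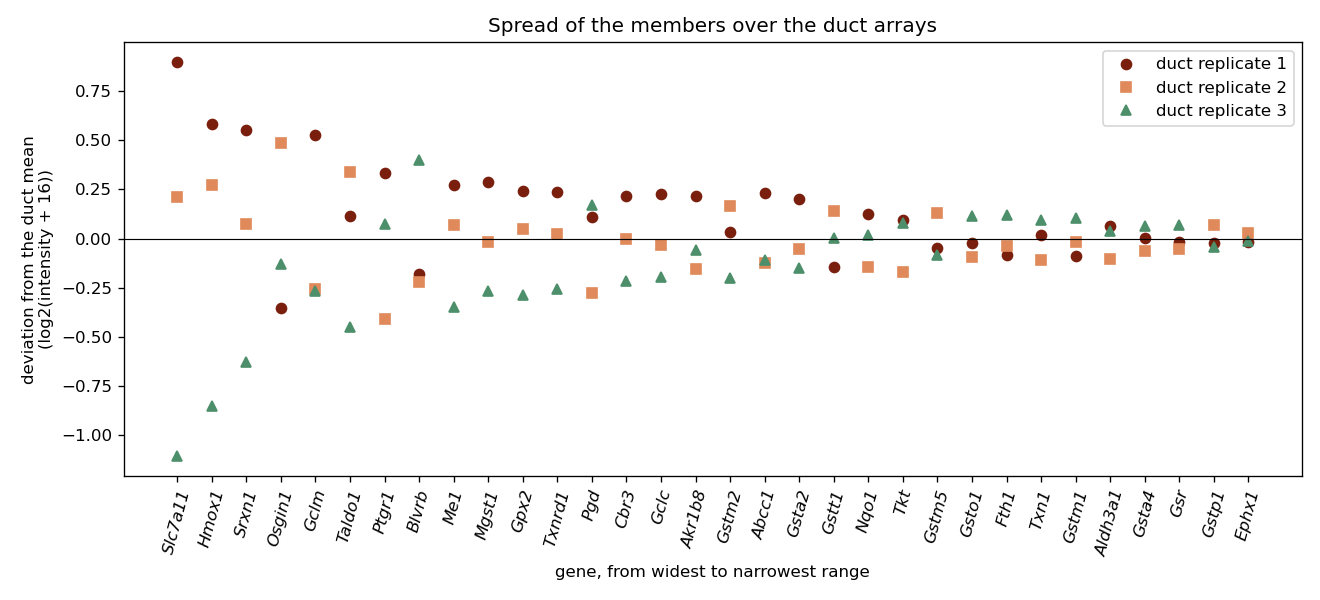
Deviation of each duct array from the mean of the 3 duct arrays, on the log2(intensity + 16) scale, for the 32 tested members ordered from the widest to the narrowest range. Slc7a11, Hmox1 and Srxn1 stand at the left with duct replicate 1 highest and duct replicate 3 lowest, and Ephx1 at the right with a range of 0.04.

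Beyond the members, 113 further genes of the pathway were counted, of which 103 were tested: 0 rose, 1 fell and the median log2 fold change was -0.04. At an unadjusted p under 0.05 there were 9 higher and 8 lower, or 8.74% and 7.77%, near the 7.91% and 10.6% of all tested genes, against which the counts of the single lists are also to be read. The gene that fell was Heph, whose product oxidises iron as it leaves cells. It measured 559 and 439 in basal and 125.2, 111.5 and 136.1 in duct cells (-1.87, SE 0.25, limma adjusted p = 0.0415). Slc40a1, the iron exporter ferroportin, named here for its values, measured 327 and 363 in basal and 130.8, 98.2 and 93.2 in duct cells (-1.56, adjusted p = 0.0672).

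None of the 15 regulators of NRF2 passed the test, and 2 were higher at an unadjusted p under 0.05. Nfe2l2 itself measured 4596 and 5819 in basal and 6770, 5975 and 5887 in duct cells, at 0.26 (adjusted p = 0.614). Keap1 measured 1679 and 1484 in basal and 2001, 1443 and 934 in duct cells, at -0.18 with overlap. Bach1, a repressor that competes for the same elements, was at 0.80 (adjusted p = 0.186), and Sqstm1, a KEAP1-binding autophagy receptor, at 0.65 (adjusted p = 0.238). All 4 were picked with their values known.

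Of 14 further transferase genes 0 passed in either direction with limma, 2 higher and 1 lower had an unadjusted p under 0.05, and the median was 0.004. Of 18 further genes of glutathione metabolism 0 passed, 2 were higher and 3 lower unadjusted, and the median was -0.19. Of 16 genes of peroxide and superoxide defence 0 passed, 1 was higher and 2 lower unadjusted, and the median was -0.04. The 8 further pentose phosphate and NADPH genes and the 15 of conjugation and carbonyl reduction had 0 past either threshold, with medians of -0.04 and -0.20, and the 17 heme and iron genes, Heph among them, had 2 higher and 2 lower unadjusted and a median of -0.05. The 2 that were higher are Tfrc, the transferrin receptor, at 1.31 (adjusted p = 0.119), and Flvcr1, a heme exporter, at 0.76 (adjusted p = 0.200), both with every duct array above the basal arrays. Chac1, which degrades glutathione and was also named for its values, measured 3.76 and 55.5 in basal cells, while duct replicates 1, 2 and 3 gave 589.6, 320.0 and 129.6 (adjusted p = 0.131). Both basal values were inside the Bacillus control range, so that the fold estimated from the means was at least 4.04. That bound leaves out the spread of the arrays: the log2 fold change was 3.04 with an interval of 1.12 to 4.96. Among the duct arrays of Chac1 replicate 1 was highest and replicate 3 lowest. Like Slc7a11, Chac1 passed the filter on dim probe sets through its duct arrays. It counts among the higher genes of its list and of all lists at an unadjusted p under 0.05.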

How the data were processed

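RNA of 5 sorted cell pools was hybridised to an Affymetrix mouse genome array, per the labels. The authors deposited 1 linear intensity per probe set and array; from the values, the mean after dropping 2% of probe sets at each end was 500.003 on every array. The summary method, background correction and software were not given in the sources used here. Of 45101 probe sets 64 controls were left out; 34945 had 1 gene symbol in the platform annotation, 932 several and 9160 none. All 32 tested members matched RefSeq symbols (GRCm38.p6) through Entrez identifiers. The probe set with the highest mean log2(intensity + 16) stood for each gene, and probe sets in the lowest 40% by that mean were left out.

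Duct minus basal differences were fitted over all 12536 genes with lmFit and eBayes of limma 3.58.1 (R 4.3.3), 2-sided, without covariates, with Benjamini-Hochberg adjustment at 0.05. Levels are linear intensities in arbitrary units. Lower bounds of folds are against the brightest Bacillus control, from means of log2 intensities, and take no account of the spread of the arrays. The fit was run on simulated data with known changes, where only the slope and the share of false calls were checked. A first bar on the share of large changes found was not met and was dropped. Members, gene lists and the rule for naming genes were chosen with earlier results of these data known. The rule gives full values for members past the threshold, for those without overlap that differ by at least 1 on the log2 scale, for the brightest of each of the 6 groups and for up to 5 with the widest duct range, and names pathway genes past the threshold; further member values are given as description. Alternatives were other scalings, pseudocounts of 1 and 64, no filter or one at 60%, the mean of probe sets, exclusion of possibly cross-hybridising ones, probe sets as the unit, a robust fit with an intensity trend, weights for arrays, replicate numbers as a block, leaving out each array (which takes a lone basal array's spread from the duct arrays) and, added after the data were seen, probe sets ranked by mean linear intensity. Columns of other samples numbered 0. At most 1 value was identical between any 2 arrays. Alignments used Biopython 1.88 and figures matplotlib 3.10.9.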

Additional observations from a re-analysis of the deposited data

How the results depend on the processing

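The number of members called higher depended on the setting, and only that of lower calls stayed at 0 in all but 1. With limma, 2 members were called higher as reported, among 105 of all genes tested. Median centring and the mean of probe sets each gave 4, among 281 and 142. A pseudocount of 64 gave 5, among 212, and a filter at 60% gave 5, among 250 of 9292 genes. An intensity trend and robust fit gave 8, among 565, and there 1 member, Gstm2, was lower, among 377. The number was 0 with a pseudocount of 1, with no filter, with probe sets as the unit, with the replicate block and without any one duct array. Over all genes these fits called 86, 35 of 18193, 58 of 27022 probe sets, 0 and 1 to 38 higher. The whole table thus also moved with the setting. At an unadjusted p under 0.05 the same fits had 10, 8, 11, 8 and 6 to 8 higher, and the shares over all genes are not given here. Quantile normalization and array weights each gave 3, among 139 and 129 of all genes. Leaving out possibly cross-hybridising probe sets gave 2, among 112. Ranking probe sets by mean linear intensity gave 2, among 103 (limma adjusted p of 0.0469 for both members). The labels number the replicates and do not say whether basal and duct arrays of one number are paired. Correlations of same-numbered deviations were -0.08 and -0.04, which with 2 basal arrays cannot settle it. With the block, duct replicate 3 adds nothing. The members' median stayed between 0.21 and 0.51, against -0.15 to 0.08 over all genes. The median range over duct pools was 0.92 with median centring, against 0.90 over all genes. Of 14 members followed through the alternatives, 2 changed sign. Gsto1 was at -0.014 with quantile normalization. Fth1 was at -0.082 with quantile normalization, -0.025 with the mean of probe sets, -0.029 with the replicate block, and -0.029 to 0.074 without 1 array, the lowest being without duct replicate 3. The cause of these changes was not tested. With 2 and 3 arrays a group, their number limits the precision.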
